A study of Mus musculus with 6 samples.

Results

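Retinoic acid is made from vitamin A by the retinaldehyde dehydrogenases Aldh1a1, Aldh1a2 and Aldh1a3 and is broken down by the cytochrome P450 enzymes Cyp26a1, Cyp26b1 and Cyp26c1. Inside the cell it is carried by the binding proteins Crabp1 and Crabp2 and acts through the nuclear receptors Rara, Rarb and Rarg, which bind DNA as partners of the RXR receptors. The retinal pigment epithelium (RPE) handles vitamin A for vision, and the choroid behind it is a vascular, pigmented tissue known as a place of retinoic acid synthesis in the eye. The 10 genes described here, Aldh1a1, Aldh1a2, Aldh1a3, Cyp26a1, Cyp26b1, Crabp1, Crabp2, Rara, Rarb and Rbp4, were chosen by gene symbol from 33924 genes in the deposited table, and all 10 were found in it.

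Each library was made from poly(A) RNA of the RPE/choroid of both eyes of a C57BL/6J mouse, and 3 mice were young and 3 were aged. By the labels the mice were male, and young mice were 1 to 2 months old, whereas the study's methods describe mice of both sexes and a somewhat older young group. Aged mice were 20 to 24 months old in the sample titles and 22 to 24 months old in the age field. No treatment or altered allele is named for either group. The deposited table gives 1 mean normalized count per gene over all libraries, which is the authors' mean, beside the columns of their own comparison between ages. Those comparison columns were not used here. The values below therefore describe young and aged RPE/choroid together, carry no SD, and give no difference between ages.

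The table was checked against the labelled tissue with marker genes. Of 8 RPE markers, 7 had mean normalized counts between 5647 for Mitf and 397586 for Ttr, whereas Best1, a chloride channel of RPE, had 81.8. Genes listed as markers of other cells were also present, at uneven levels. The 5 rod photoreceptor markers had means between 15466 and 139449, and the 4 skeletal muscle markers had means between 35123 and 48944. The 6 stromal fibroblast markers lay between 5456 and 84651, the 5 melanocyte markers between 321 and 256984, the 5 endothelial markers between 717 and 7369, the 5 macrophage markers between 1341 and 13165 and the 4 Müller glia markers between 1500 and 73484. Within the melanocyte list Dct, Pmel and Mlana had means of 25408 or more, whereas Sox10 had 1256 and Kit 321. Among the Müller glia markers Glul had 73484 and the others lay between 1500 and 2942. Whether the reads of Dct, Pmel, Mlana and Glul came from those cells or from RPE was not tested. No marker was at 0. Which of these cells expressed each retinoic acid gene was not tested, and in such bulk tissue fewer cells of a type and less RNA per cell cannot be told apart.

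The upstream sequences of Rarb and Cyp26a1 are shown because, of the 8 genes that could be searched, these held a match to the retinoic acid response element. Crabp2 and Aldh1a3 had no start window and were not searched. RAR and RXR partners are known to bind a direct repeat of a 6-base half-site. The 250 bases before each RefSeq transcription start (GRCm38.p6) were searched on both strands for direct repeats with 5 bases between the half-sites. Half-sites were AGGTCA as the usual form, and besides it AGTTCA was allowed, while GGGTCA was another allowed form and GGTTCA was the remaining form, in any pair. The motif was present before the starts of Rarb and Cyp26a1. It was found in 2 of the 13 start windows of the 8 genes that had one, and in 29 of 32851 windows of all genes, which is 0.0883%. Repeats of the same half-sites spaced by 1 base or by 2 bases were in 0 of the 13 windows, against 0.164% and 0.174% of all windows. The Rarb element was known beforehand, and Cyp26a1 is known to be induced by retinoic acid. The genes searched were also chosen as retinoic acid genes. These shares are therefore a description, and enrichment was not tested. Each sequence reads 5′ to 3′ along its gene, with the motif in capitals.

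Rarb: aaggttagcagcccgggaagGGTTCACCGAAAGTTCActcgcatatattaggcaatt

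Cyp26a1: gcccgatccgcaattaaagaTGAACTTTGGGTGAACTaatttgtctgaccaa

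The Rarb sequence lies at chr14:16575493-16575549 on the minus strand, and its motif starts 53 bases before the RefSeq start that was searched. That start lies inside the Rarb gene as GENCODE places it, from 16430839 to 16819156. The outer end at 16819156 was not searched, and the Rarb mean does not separate transcripts by start. The Cyp26a1 sequence lies at chr19:37697756-37697807 on the plus strand and ends at the RefSeq start. GENCODE starts the gene at 37697798, so the last bases of this sequence lie inside the gene by that annotation. The Cyp26a1 motif begins 32 bases before the RefSeq start and is on the opposite strand of the gene, where it reads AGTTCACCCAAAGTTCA. Both motifs end in the half-site AGTTCA when read along their own strand. A match describes the letters of these windows, and binding of a receptor was not measured.

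Levels of the 10 genes spanned from 35.3 for Rbp4 to 6407 for Aldh1a1 as mean normalized counts. To compare genes of unequal length, the mean was also divided by the length in kilobases of the longest coding transcript in GENCODE. Percentiles place this value among 17915 genes at or above a mean of 10 that had an annotated length. All 10 genes reached that minimum. Dividing by length shifts the comparison towards short genes. Over coding genes split by length into 5 bins, the median of the authors' means was 737 in the shortest bin and 1024 in the longest, while the median per kilobase was 610 in the shortest bin and 144 in the longest. Percentiles per kilobase are therefore higher for short transcripts such as those of Crabp1 and Crabp2, whose percentiles on the plain mean were 21.8 and 41.4. The study's methods name a step in TPM, a unit that already corrects for transcript length, before the normalized counts, so both scales are given and which of them is right for these means is not settled here.

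**Figure D1:**
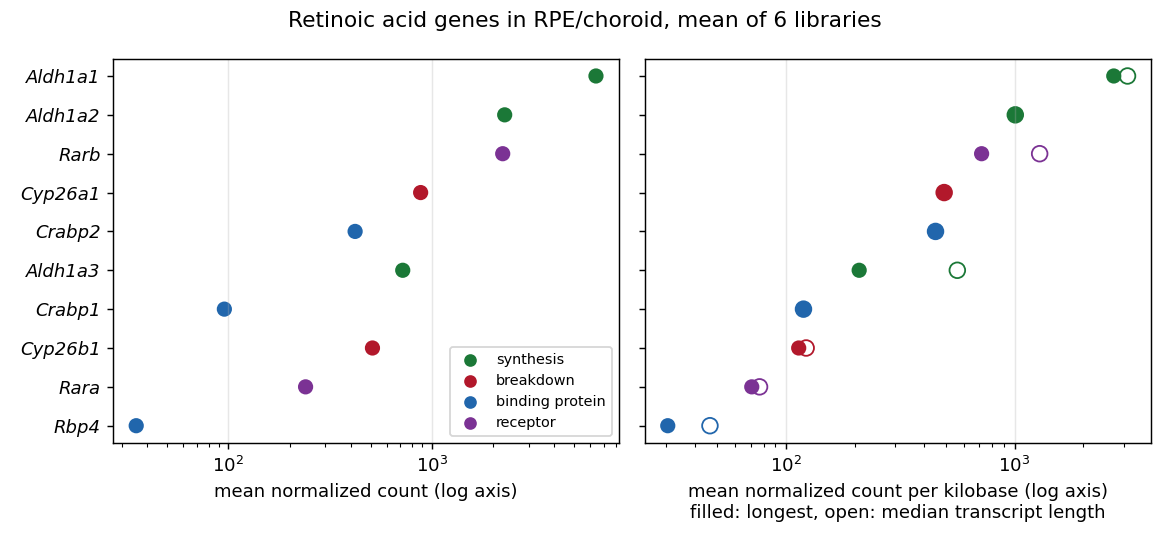
Mean normalized count of each gene (left) and the same value per kilobase of transcript (right), both on log axes, with 1 point per gene as the authors' mean over 6 libraries and no error bar. Aldh1a1 is at the right end and Rbp4 at the left end on every scale, while Aldh1a3 and Rarb move most between the filled points (longest transcript) and the open points (median transcript length).

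Of the synthesis enzymes, Aldh1a1 was first of the 10 genes on every scale, Aldh1a2 was near the top and Aldh1a3 lay in the middle of the order. Aldh1a1, a cytosolic retinaldehyde dehydrogenase (ENSMUSG00000053279.8, GRCm38 chromosome 19 from 20492715 to 20643465, plus strand), stood at 6407 as a mean normalized count and ranked 1194th of all genes in the table. Per kilobase its level was 2717, at percentile 92.3. Aldh1a2 (ENSMUSG00000013584.5, chromosome 9 from 71215789 to 71296243, plus strand), the enzyme that makes most retinoic acid in the early embryo, had a mean of 2282 and a level of 1008 per kilobase, at percentile 81.0. Aldh1a3 (ENSMUSG00000015134.15, chromosome 7 from 66390890 to 66427517, minus strand) had a mean of 720 and a level of 209 per kilobase, at percentile 48.4. Aldh1a1 was thus 2.70 times Aldh1a2 and 13.0 times Aldh1a3 per kilobase, against 2.81 and 8.90 times as plain means. It made up 69.1% of the summed level of the Aldh1a enzymes, against 25.6% for Aldh1a2 and 5.32% for Aldh1a3.

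The transcript length used for Aldh1a3 decided how far it lay below the others. Its longest coding transcript has 3443 bases and the median of its 4 coding transcripts has 1281 bases. With the median length its level was 562 per kilobase and Aldh1a1 was 5.55 times higher. Aldh1a1 stayed between 66.5% and 69.1% of the Aldh1a sum on the 3 scales, which are the plain mean and both lengths. The coding sequences of the 3 enzymes were 69.2% to 69.9% identical base for base in pairs. Of the 50-base words of Aldh1a1 transcripts 96.9% were in no other gene, and the shared words were with Aldh1a7, a neighbouring relative whose own mean was 243.

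Both breakdown enzymes were lower than Aldh1a1 and Aldh1a2. Cyp26a1 (ENSMUSG00000024987.6, chromosome 19 from 37697798 to 37701536, plus strand) oxidizes retinoic acid and is itself known to be induced by it. Its mean normalized count was 882 and its level 492 per kilobase, at percentile 67.0. Cyp26b1 (ENSMUSG00000063415.12, chromosome 6 from 84571414 to 84593908, minus strand) had a mean of 511 and a level of 114 per kilobase, at percentile 36.0. The ratio of Cyp26a1 to Cyp26b1 was 1.72 as plain means and 4.33 per kilobase, because the longest Cyp26b1 transcript has 4495 bases and that of Cyp26a1 has 1791. Cyp26c1, the remaining enzyme of the family, had a mean of 33.3 and held 3.05% of the family sum per kilobase. Per kilobase Aldh1a1 was 5.52 times Cyp26a1 and Aldh1a2 was 2.05 times Cyp26a1, against 7.27 and 2.59 times as plain means. Percentiles on the plain mean were 56.1 for Cyp26a1 and 44.7 for Cyp26b1.

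The binding proteins ranged widely, and Rbp4 and Crabp1 had the lowest plain means of the 10 genes. Crabp2, which delivers retinoic acid to nuclear receptors (ENSMUSG00000004885.5, chromosome 3 from 87948666 to 87953376, plus strand), stood at 420 as a mean normalized count, with a level of 451 per kilobase, at percentile 65.1. Crabp1 (ENSMUSG00000032291.8, chromosome 9 from 54764748 to 54773110, plus strand) is the other cytosolic carrier and had a mean of 95.7 and a level of 119 per kilobase, at percentile 36.9. Crabp2 was 4.39 times Crabp1 as plain means and 3.78 times per kilobase. Their coding sequences of 414 and 411 bases were 70.8% identical, yet none of their 50-base words was shared with another gene. Crabp2 ranked above Aldh1a3 per kilobase of the longest transcript. It ranked below Aldh1a3 as a plain mean and per kilobase of the median transcript length, where the levels were 451 and 562.

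Rbp4, the plasma carrier that brings retinol from the liver (ENSMUSG00000024990.13, chromosome 19 from 38116629 to 38125281, minus strand), was the lowest of the 10. Its mean normalized count was 35.3 and its level 30.4 per kilobase, at percentile 17.0 of the ranked genes. Ttr, the protein that travels with Rbp4 in plasma and a marker of RPE, held rank 3 of all genes with a mean of 397586. Stra6, the membrane receptor for Rbp4, had a mean of 7693.

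Within the RAR family, Rarb had the highest level. Rarb (ENSMUSG00000017491.9, chromosome 14 from 16430839 to 16819156, minus strand) is a receptor whose own gene is known to respond to retinoic acid through the element printed above. Its mean normalized count was 2231 and its level 718 per kilobase, at percentile 74.9. Rara (ENSMUSG00000037992.16, chromosome 11 from 98927818 to 98974942, plus strand), the receptor usually described as widely expressed, had a mean of 240 and a level of 70.9 per kilobase, at percentile 28.4. Rarg had a mean of 989. Rarb was 9.30 times Rara as plain means and 10.1 times per kilobase, and with the median transcript length the ratio was 16.8.

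Rarb held 63.9% of the summed RAR level per kilobase, Rarg 29.8% and Rara 6.31%. With the median transcript length Rarb and Rarg came to 53.1% and 43.7%. The level of Rarb carries a limit, since 1793 of its 5265 exon bases lie opposite exons of Top2b on the other strand, and 227 lie opposite an antisense transcript, Gm48162. Top2b had a mean of 7924. The libraries were made with a stranded kit, and whether strand was used in counting is not given in the sources used here, so the part of Top2b reads in the Rarb value was not tested. On its own strand Rarb shared none of its 50-base words with another gene.

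**Figure D2:**
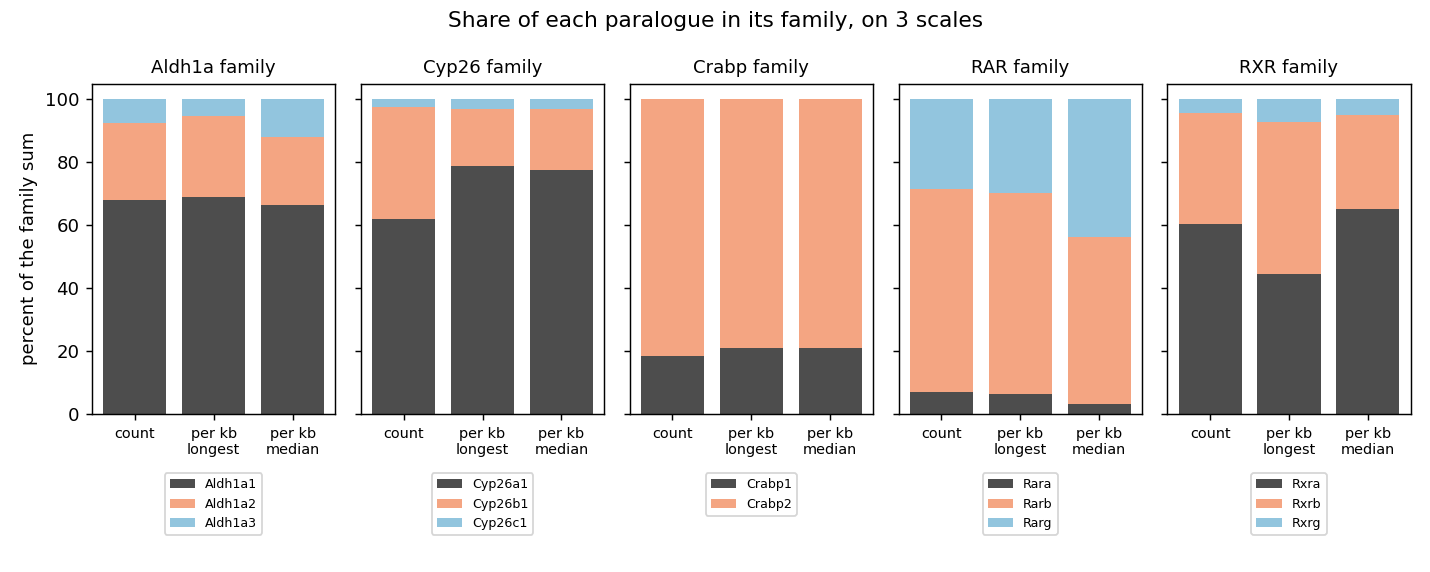
Each stacked bar is the sum of a family set to 100 percent, with the share of each gene on the plain mean, per kilobase of the longest transcript and per kilobase of the median transcript length. Aldh1a1, Cyp26a1, Crabp2 and Rarb hold the largest share of their family on every scale, whereas Rxra and Rxrb exchange places.

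Among the RXR partners, Rxra had a mean normalized count of 3552 and Rxrb of 2068, which is 724 and 787 per kilobase, and Rxrg had 252. The ratio of Rarb to Rxra was 0.628 as plain means, 0.991 per kilobase of the longest transcript and 0.721 per kilobase of the median transcript length. The 6 corepressors and coactivators described here lay between 869 for Ep300 and 2123 for Ncor1. Ppard, another receptor of the same class, had a mean of 83.1, whereas Fabp5, the carrier known to deliver retinoic acid to it, had 11737 and was 26.4 times Crabp2 per kilobase.

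Some genes of earlier vitamin A steps were far more abundant than the 10 genes. Rdh10, which oxidizes retinol to retinaldehyde, had a mean normalized count of 52732 and was 5.41 times Aldh1a1 per kilobase. Dhrs3, which works in the reverse direction, had 5991, Rdh11 had 6885, Adh1 had 1919 and Adh7 had 1629. Dhrs9 had a mean of 4.95, under the minimum of 10. Lrat, the enzyme that stores retinol as esters, had 50958 and Dgat1 had 1233. Among the visual cycle genes, means were 297444 for Rgr, 113930 for Rpe65, 102636 for Rlbp1, 28192 for Rdh5 and 6898 for Rbp3, and Rpe65 was 22.5 times Aldh1a1 per kilobase. Rgr, Rpe65, Rlbp1 and Lrat are also on the RPE marker list.

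Genes known to respond to retinoic acid were uneven. Tgm2, a transglutaminase, had a mean normalized count of 4903, and Rarres2, which encodes chemerin, had 4071. Stra8, a gene of germ cells entering meiosis, had 0.517. The median over the 18479 genes with a mean of 10 or more was 668, and Tgm2 and Rarres2 were above it.

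**Figure D3:**
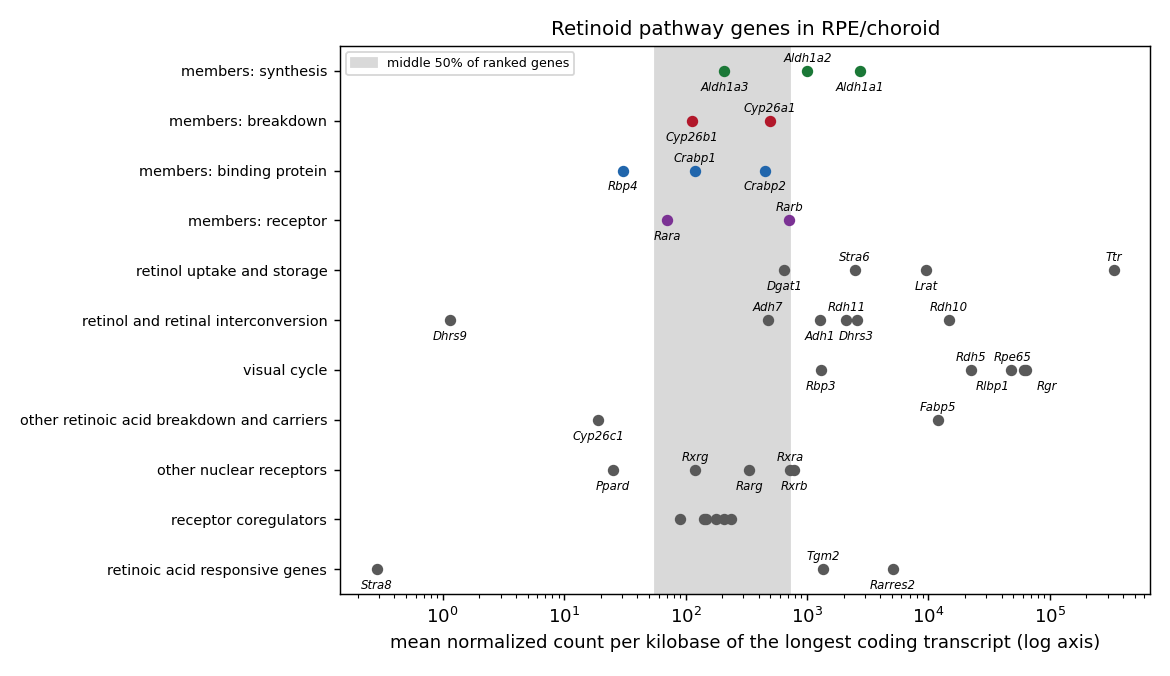
Mean normalized count per kilobase of the longest coding transcript, on a log axis, with 1 point per gene grouped by role and the middle 50% of ranked genes shaded (56.1 to 720). On this scale only Aldh1a1 and Aldh1a2 of the 10 genes (coloured) lie above the shading and only Rbp4 lies below it. Rarb, at 718, lies at the upper edge, and its percentile was 77.7 on the plain mean and 77.9 with the median transcript length. Aldh1a2 was at percentile 73.4 with the median length, and Crabp1 was at 21.8 on the plain mean. Most retinol and visual cycle genes (grey) lie to the right, and the unlabelled points are the 6 coregulators.

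In order per kilobase of the longest transcript, the 10 genes ran Aldh1a1, Aldh1a2, Rarb, Cyp26a1, Crabp2, Aldh1a3, Crabp1, Cyp26b1, Rara and Rbp4. Neighbours in this order could not be set against a spread between mice. The closest pair was Crabp1 at 119 and Cyp26b1 at 114 per kilobase, and as plain means Aldh1a2 at 2282 and Rarb at 2231 were closest.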

How the data were processed

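Per the labels and the study's methods, poly(A) libraries of RPE/choroid from 3 young and 3 aged mice were rRNA-depleted and built with a stranded kit. The authors trimmed reads with BBDuk, mapped them with STAR to GRCm38 transcripts, quantified TPM values, a unit corrected for transcript length, with Sailfish and turned these into normalized counts by total count. The signal used here is the authors' deposited mean normalized count over all libraries. The table also holds the authors' fold change between ages, its standard error, test statistic, p-value and adjusted p-value (DESeq2). These 5 columns were not used.

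No value per library is given. The means of genes with a single count took 6 distinct values, which gave size factors between 0.959 and 1.06 for 6 libraries that were not assigned to groups. Means summed to 40816668. The study's methods describe a scaling of the counts beforehand, so whether this sum reflects the sequencing depth is unknown. The planned edgeR test of age was not run.

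Positions and lengths came from GENCODE M21 (GRCm38), with 96.9% of 18479 ranked genes matched by symbol or RefSeq synonym. Coding sequences were aligned globally (Biopython 1.88). Promoters came from RefSeq (GRCm38.p6). Python 3.11.15, pandas 2.3.3, numpy 2.4.6 and matplotlib 3.10.9 were used. Ranking, motif search and the count decomposition were tested on simulated data. Genes named are the 10 members and fixed lists of pathway and marker genes, which were chosen with earlier results of these data known. A few listed genes are not reported here. Names are those in the table, with Adgre1 listed as Emr1. The alternatives were other lengths, other ranked genes and a wider tolerance.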

Additional observations from a re-analysis of the deposited data

How the results depend on the processing

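The order of the 10 genes rested on the length used. With the median transcript length 3 of 10 genes kept their place, and with no length correction 5 of 10 did. Aldh1a1 stayed first and Rbp4 last. Percentiles moved by 10 points or more for 1 gene, Aldh1a3, with the median length, for 3 genes with no length correction and for 5 genes when all genes above 0 were ranked, where percentiles rise by construction. The planned recovery of whole counts in single libraries failed for Rbp4, the lowest gene: at the written precision of its mean 5434 sets of 6 counts gave it, and 54658 sets at a tolerance 10 times wider. No paired analysis was possible because each gene has 1 mean over all libraries. For the same reason TMM against DESeq2 size factors, a count filter, leaving out each replicate and the age test itself were not run.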
